A study of Mus musculus with 6 samples.

Results

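The proteasome genes of mouse muscle were taken as the genes whose symbol in the array's annotation begins with Psma, Psmb, Psmc, Psmd, Psme, Psmf or Psmg followed by a digit, and for which 3 or more of the 6 arrays gave a probe a detection p below 0.05. Of 49 genes with such a name, 41 were detected, among 9978 genes tested in all. They fell into an immunoproteasome set of 5 genes (Psmb8, Psmb9, Psmb10, Psme1 and Psme2) and a constitutive set of 36. The name rule also took in Psmc3ip and Psme3ip1, which are not proteasome subunits, and without them the constitutive set held 34 genes. No probe of Psma1, Psma3, Psma6, Psma8, Psmb11, Psmc6, Psmd3 or Psmg4 was detected on any array, so these 8 genes carry no value here.

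RNA came from the tibialis anterior, the shin muscle of the hindlimb, which is rich in fast fibres, of male mice aged 3 months. There were 3 arrays labelled PGC1b transgenic, a genotype named for the transcriptional coactivator PGC-1β (gene Ppargc1b), and 3 wild-type arrays. The platform was the Illumina Mouse WG-6 v2, which reads 1 colour. The promoter that drives the transgene and the strain of the mice are not given in the sources used here.

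Levels are given on the log2 scale, after correction for background and quantile normalization. Changes are labelled transgenic minus wild type, and "rose" and "fell" refer to a Benjamini-Hochberg adjusted p under 0.05 in limma, fitted over the 9978 genes. Detected probes numbered 17525 to 17604 on the labelled transgenic arrays and 15338 to 15691 on the wild-type arrays, and 3 arrays a group limit the precision. Ppargc1b was checked first, by the 1 probe it has, with unnormalized intensities of 281.3, 373.4 and 309.8 on the labelled transgenic arrays and 497.2, 648.7 and 708.9 on the wild-type arrays. Its change was -1.32 (SE 0.21, limma adjusted p = 0.000734), which goes against the label, and what part of the transcript the probe reads was not tested. Every direction below therefore rests on the genotype labels. As a check of the tissue, 11 of 11 skeletal muscle markers were detected. Acta1, the skeletal actin, had 14.48 ± 0.08 in labelled transgenic muscle and 14.53 ± 0.03 in wild-type muscle (SD, n = 3 each). Not all markers were as steady: of the 11, 1 rose and 4 fell. Their changes ran from -3.91 (Myh4) to 0.71, with a median of -0.13. Detection of these genes cannot tell which skeletal muscle was taken, so tibialis anterior rests on the label.

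The proteasome is the chamber in which cells break down proteins marked with ubiquitin. Its 20S core is a stack of α and β rings whose β subunits cut the chain, and the 19S cap recognises ubiquitin, unfolds the substrate with a ring of ATPases and feeds it in. Interferon-γ and immune cells switch on the alternative catalytic subunits Psmb8, Psmb9 and Psmb10, which replace Psmb5, Psmb6 and Psmb7 in newly built cores to form the immunoproteasome, and the PA28 activator made of Psme1 and Psme2, and these are known for producing peptides for MHC class I. In muscle, the ubiquitin-proteasome system is known for the breakdown of contractile proteins during wasting.

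The promoters of the genes on which the results turn are shown as the RefSeq windows from 250 bases before to 50 after the annotated start, in build GRCm38.p6 and 5′ to 3′ on the gene's strand. Both strands were searched for the gamma-interferon activation site TTCNNNGAA and the interferon-stimulated response element core (GAAA, any 2 bases, GAAA). The antioxidant response element core TGACNNNGC and the ERR response element TNAAGGTCA were searched likewise. Capitals mark matches to all but the ERR element, which none of the windows shown held. The first 4 windows belong to genes of the immunoproteasome set, the next pair to constitutive catalytic subunits, and the last to Psme4, which had the largest fall among the members.
Psmb8, chr17:34197945-34198244, plus strand: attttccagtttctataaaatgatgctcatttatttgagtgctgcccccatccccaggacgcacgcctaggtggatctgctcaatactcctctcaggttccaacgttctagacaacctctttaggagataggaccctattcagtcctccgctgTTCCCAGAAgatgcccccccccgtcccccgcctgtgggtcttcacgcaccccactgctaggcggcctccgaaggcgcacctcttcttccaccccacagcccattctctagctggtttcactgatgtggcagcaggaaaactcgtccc
Psmb9, chr17:34187281-34187580, minus strand: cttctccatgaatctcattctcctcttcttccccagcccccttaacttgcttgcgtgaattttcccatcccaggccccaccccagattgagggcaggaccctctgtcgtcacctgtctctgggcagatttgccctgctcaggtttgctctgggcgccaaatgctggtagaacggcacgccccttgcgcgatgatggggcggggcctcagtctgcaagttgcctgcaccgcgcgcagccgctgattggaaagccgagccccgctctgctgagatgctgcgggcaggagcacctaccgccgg
Psmb10, chr8:105938343-105938642, minus strand: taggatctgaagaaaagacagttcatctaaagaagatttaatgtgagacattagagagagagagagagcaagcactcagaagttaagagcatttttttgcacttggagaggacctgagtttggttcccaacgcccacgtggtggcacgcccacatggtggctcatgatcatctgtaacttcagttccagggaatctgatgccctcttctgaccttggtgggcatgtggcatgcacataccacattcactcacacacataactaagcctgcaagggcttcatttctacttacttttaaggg
Psme1, chr14:55578244-55578543, plus strand: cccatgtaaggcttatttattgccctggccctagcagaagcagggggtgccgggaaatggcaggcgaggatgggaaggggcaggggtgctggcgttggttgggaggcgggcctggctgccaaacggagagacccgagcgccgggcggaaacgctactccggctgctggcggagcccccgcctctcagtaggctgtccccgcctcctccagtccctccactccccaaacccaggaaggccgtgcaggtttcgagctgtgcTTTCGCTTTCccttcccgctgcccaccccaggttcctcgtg
Psmb5, chr14:54617946-54618245, minus strand: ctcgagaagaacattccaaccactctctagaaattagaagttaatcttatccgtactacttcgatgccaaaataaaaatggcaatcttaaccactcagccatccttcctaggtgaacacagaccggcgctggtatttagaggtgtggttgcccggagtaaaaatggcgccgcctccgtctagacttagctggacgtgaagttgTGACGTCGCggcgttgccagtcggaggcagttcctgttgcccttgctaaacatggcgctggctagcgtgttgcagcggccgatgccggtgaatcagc
Psmb6, chr11:70525107-70525406, plus strand: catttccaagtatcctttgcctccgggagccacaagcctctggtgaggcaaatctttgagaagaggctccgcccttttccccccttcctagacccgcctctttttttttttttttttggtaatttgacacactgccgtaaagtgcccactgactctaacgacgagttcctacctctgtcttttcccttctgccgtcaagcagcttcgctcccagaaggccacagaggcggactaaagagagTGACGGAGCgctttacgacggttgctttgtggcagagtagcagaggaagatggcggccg
Psme4, chr11:30771525-30771824, plus strand: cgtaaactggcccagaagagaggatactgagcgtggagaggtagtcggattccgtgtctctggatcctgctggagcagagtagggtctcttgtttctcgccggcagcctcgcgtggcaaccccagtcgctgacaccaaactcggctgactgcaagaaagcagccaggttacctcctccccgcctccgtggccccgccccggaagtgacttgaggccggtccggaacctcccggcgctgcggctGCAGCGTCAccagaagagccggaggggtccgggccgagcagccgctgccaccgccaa
The Psmb8 window held TTCCCAGAA 97 bases before the start, a form of the gamma-interferon activation site. The Psme1 window held the interferon-stimulated core 10 bases after the start, read on the other strand. The windows of Psmb5, Psmb6 and Psme4 held the antioxidant core 47, 9 and 7 bases before the start. The windows of Psmb9 and Psmb10 held none of the 4 motifs in these letters, which says nothing about the factors. Psmb9 and Tap1, the peptide transporter gene beside it, are read in opposite directions and their windows share 275 bases. The gene order there on chromosome 17 is Psmb9, Tap1, Psmb8 and Tap2.

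Windows were found for 35 of the 41 members, 38 windows in all. The gamma-interferon activation site stood in 3 of these 38 (Psmb8, Psmd2 and Psmg1) and in 8.3% of all 32851 windows of the table. The interferon-stimulated core stood in 4 (Psmb3, Psmd4, Psmd9 and Psme1) and in 3.44% of all windows. The antioxidant core stood in 5 (Psmb5, Psmb6, Psmd12, Psmd9 and Psme4) and in 12.4% of all windows. The ERR element stood in 1, that of Psmc3ip, and in 1.28% of all windows. These are matches of letters and not sites shown to be bound.

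The 3 inducible catalytic subunits rose in labelled transgenic muscle, by 2.43-fold to 3.27-fold, while the changes of the 3 subunits they replace did not pass the threshold. Of the immunoproteasome set, 4 of 5 genes rose and 0 fell, where 28.1% of all genes tested rose. In these 4 genes the groups did not overlap, as in 31.5% of all genes. Psmb8, the inducible chymotrypsin-like subunit, had 9.98, 10.40 and 9.65 in labelled transgenic muscle, against 8.44, 8.20 and 8.27 in wild-type muscle. Each labelled transgenic array lay above each wild-type array, and the second stood highest. Its change was 1.71 (SE 0.18, adjusted p = 9.16e-05), a fold of 3.27. Of all genes tested, 4.25% had a change at or above this one.

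Psmb9, the inducible caspase-like-site subunit, had 8.50, 9.14 and 8.56 in labelled transgenic muscle, against 7.43, 7.30 and 7.44 in wild-type muscle. It rose by 1.34 (SE 0.17, adjusted p = 0.000245), a fold of 2.53, with no overlap between groups. Psmb10, the inducible trypsin-like subunit, had 10.90, 11.20 and 10.91 in labelled transgenic muscle, against 9.70, 9.74 and 9.73 in wild-type muscle. It rose by 1.28 (SE 0.12, adjusted p = 3.91e-05), a fold of 2.43, and here too the second labelled transgenic array was the highest of the 6. Further probes moved the same way: the second Psmb8 probe gave 1.10 (adjusted p over probes = 0.00183) and the second Psmb10 probe 1.34 (2.17e-05). The summed signal of the 3 genes ran from 3109 to 4271 in labelled transgenic muscle and from 1304 to 1350 in wild-type muscle. In muscle tissue measured as a whole, more cells of a type and more RNA per cell cannot be told apart.

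**Figure D1:**
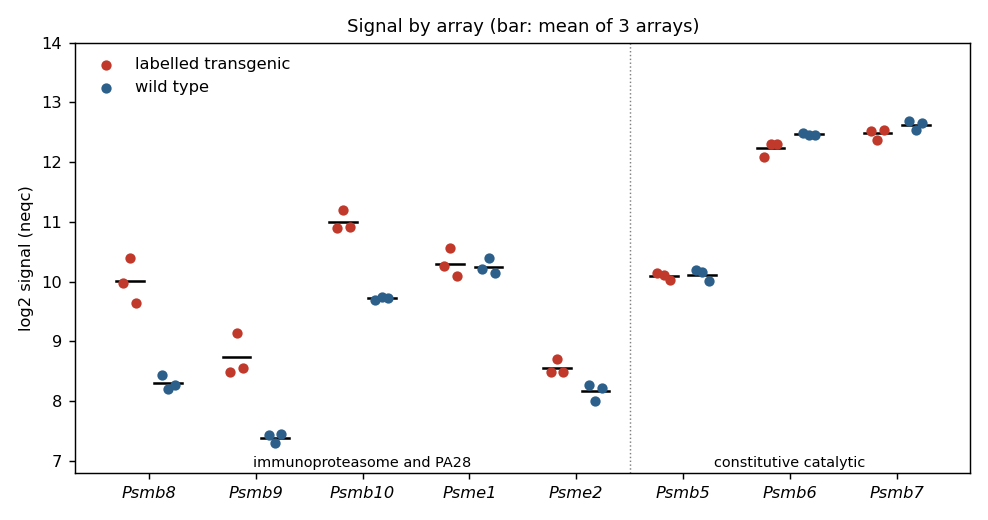
Log2 signal on each array (y axis) of 8 genes (x axis), labelled transgenic left and wild type right, with a bar at the mean of 3 arrays. The labelled transgenic points of Psmb8, Psmb9 and Psmb10 lie above the wild-type points, while those of Psmb5 and Psmb7 overlap them, and the heights of different genes are not comparable because each has its own probe.

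The PA28 activator, a ring that opens the core without ATP, changed less. Psme2, its β chain, had 8.49, 8.70 and 8.49 in labelled transgenic muscle, against 8.26, 8.01 and 8.22 in wild-type muscle. It rose by 0.39 (SE 0.12, adjusted p = 0.0217), a fold of 1.31, and the call was lost without labelled transgenic array 2 (0.33, adjusted p = 0.0705) and without wild-type array 2 (0.32, adjusted p = 0.083). Psme1, its α chain, had 10.26, 10.56 and 10.09 in labelled transgenic muscle, against 10.21, 10.40 and 10.14 in wild-type muscle. These groups overlapped, with a change of 0.05 (SE 0.14, adjusted p = 0.776) and a 95% interval of -0.28 to 0.38, and its second probe gave -0.08. Psme1 and Psme2 stand close together on chromosome 14 with Emc9 between them. Psme3, the nuclear PA28γ, had a change of 0.15 (SE 0.11, adjusted p = 0.303).

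None of the 3 constitutive catalytic subunits passed the threshold on the probe that stood for the gene. Psmb5, the chymotrypsin-like subunit that Psmb8 replaces, had 10.15, 10.12 and 10.02 in labelled transgenic muscle, against 10.19, 10.16 and 10.004 in wild-type muscle. Its change was -0.02 (SE 0.11, 95% interval -0.27 to 0.22). Psmb6, the caspase-like subunit that Psmb9 replaces, had 12.09, 12.30 and 12.31 in labelled transgenic muscle, against 12.49, 12.45 and 12.45 in wild-type muscle. The groups did not overlap, but the change of -0.23 (SE 0.11, adjusted p = 0.103) missed the threshold, while a second Psmb6 probe gave -0.31 (adjusted p over probes = 0.0425). Psmb7, the trypsin-like subunit that Psmb10 replaces, had 12.52, 12.38 and 12.54 in labelled transgenic muscle, against 12.69, 12.54 and 12.66 in wild-type muscle. Its change was -0.15 (SE 0.11, adjusted p = 0.279) with overlapping groups. Its dimmer probes gave -0.29 without overlap (adjusted p over probes = 0.0553), and -0.10 and -0.38 with overlap, none of them called.

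Within each array, the inducible subunit was set against its constitutive partner as a difference of log2 signals, so that the scaling of the array largely drops out. The level of 1 probe is not comparable with another's, so the result is the change of the difference. Psmb8 minus Psmb5 was -0.17, 0.29 and -0.38 in labelled transgenic muscle, against -1.76, -1.96 and -1.74 in wild-type muscle, a change of 1.73 or 3.32-fold. Psmb9 minus Psmb6 was -3.59, -3.16 and -3.75 in labelled transgenic muscle, against -5.06, -5.15 and -5.00 in wild-type muscle, a change of 1.57 or 2.97-fold. Psmb10 minus Psmb7 was -1.62, -1.18 and -1.63 in labelled transgenic muscle, against -2.99, -2.80 and -2.93 in wild-type muscle, a change of 1.43 or 2.69-fold. For Psme2 minus Psme1 the change was smaller, 0.34 or 1.27-fold. In each of these 4 pairs the groups did not overlap. The exact two-sided permutation test gave p = 0.1 for each pair, also after adjustment over the 4 pairs, which is the smallest p that 3 against 3 arrays can give. With every combination of kept probes, the change of Psmb8 minus Psmb5 was 1.12 to 1.73, that of Psmb9 minus Psmb6 1.57 to 1.65, and that of Psmb10 minus Psmb7 1.38 to 1.71, without overlap of the groups in any combination.

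**Figure D2:**
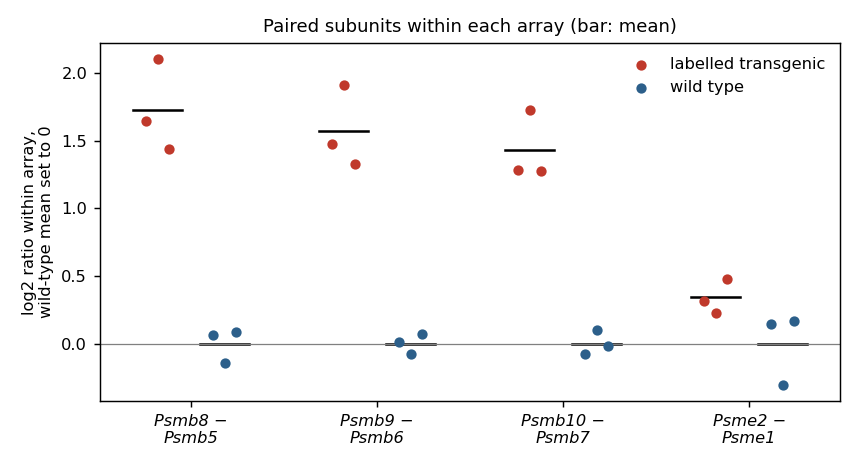
Log2 difference between paired subunits on each array (y axis, the wild-type mean of each pair set to 0) for 4 pairs (x axis), labelled transgenic left and wild type right, with a bar at the mean. The labelled transgenic means lie 1.73, 1.57, 1.43 and 0.34 above the wild-type means, and no pair overlaps.

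The remaining core changed little. Of 11 constitutive 20S subunits measured, 1 rose and 0 fell against 28.1% of all genes that rose and 28.2% that fell. At an unadjusted p under 0.05 the counts were also 1 and 0, against 30.3% and 31.2% of all genes. Their median change was 0.02, and the median over all genes was -0.03. Psma5, the α5 chain, had 12.60, 12.57 and 12.45 in labelled transgenic muscle, against 12.26, 12.09 and 12.11 in wild-type muscle. It rose by 0.39 (SE 0.11, adjusted p = 0.0146), a fold of 1.31, and passed the threshold neither without wild-type array 2 (adjusted p = 0.054) nor without wild-type array 3 (adjusted p = 0.0504). Scaled to the probes detected on all arrays, its change was 0.14 (adjusted p = 0.285). The other α chains measured were Psma2 (0.02), Psma4 (0.11) and Psma7 (-0.00 on its brighter probe and 0.06 on the other), each with overlapping groups. Of the non-catalytic β chains, Psmb1 changed by 0.06, Psmb4 by -0.01, Psmb2 by 0.24 (adjusted p = 0.132) and Psmb3 by 0.25 (adjusted p = 0.136), none past the threshold. A second Psmb2 probe was higher on each labelled transgenic array, by 0.42 (adjusted p over probes = 0.014). The summed signal of the 11 core genes was 50641 to 53830 in labelled transgenic muscle and 49364 to 51246 in wild-type muscle, ranges that overlap.

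All 15 cap genes measured had a change below 0, 8 fell and 0 rose, against 28.2% of all genes that fell, and the median change was -0.28. Groups did not overlap in 9 of the 15, lower in labelled transgenic muscle, where 32.3% of all genes did so. Of the 25 kept probes of cap genes, 24 had a change below 0 and 13 were called lower, where 27.9% of probes tested singly were. Probes were counted under quantile normalization only, and some were dim. A second Psmd11 probe, called lower, had unnormalized intensities of 132, 128.2 and 115.9 on the labelled transgenic arrays. On the wild-type arrays it had 134.3, 110.5 and 144.3, so the groups overlapped before normalization. The summed signal of the 15 genes was 32145 to 32846 in labelled transgenic muscle and 39820 to 42243 in wild-type muscle. The number called depended on the arrays included: it was 4 without labelled transgenic array 1, 5 without 2 and 6 without 3, and 4 without wild-type array 1, 6 without 2 and 5 without 3.

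Within the cap, 7 of 10 non-ATPase genes fell, and 1 of 5 ATPases, against 28.2% of all genes. Whether non-ATPase genes and ATPases differ was not tested. Psmd4, the ubiquitin receptor also called Rpn10, had 12.22, 12.21 and 12.15 in labelled transgenic muscle, against 12.85, 12.87 and 12.92 in wild-type muscle. It fell by 0.69 on the log2 scale (SE 0.10, adjusted p = 0.000486), 1.61-fold, and the groups were far apart next to their spread. Psmd7, the lid scaffold Rpn8 that partners the deubiquitinase, had 10.84, 10.92 and 10.81 in labelled transgenic muscle, against 11.53, 11.41 and 11.36 in wild-type muscle. It fell by 0.57 (SE 0.11, adjusted p = 0.00173), with 2 dimmer probes at -0.44 and -0.11. Psmd4 and Psmd7 passed the threshold under each of the 17 processing alternatives run.

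Psmd1, the large base scaffold Rpn2, had 12.20, 12.05 and 12.14 in labelled transgenic muscle, against 12.60, 12.53 and 12.38 in wild-type muscle. It fell by 0.37 (SE 0.11, adjusted p = 0.0192), and its other probes gave -0.39 and -0.98. The call was lost without labelled transgenic array 2 (adjusted p = 0.0584), wild-type array 1 (0.0662) or wild-type array 2 (0.0582). Psmd11, the lid subunit Rpn6, had 8.17, 7.62 and 8.04 in labelled transgenic muscle, against 8.76, 8.65 and 8.34 in wild-type muscle, and fell by 0.64 (SE 0.17, adjusted p = 0.0122). The call was lost with arrays scaled to the median of all probes (-0.41, adjusted p = 0.0871). Psmd8, the lid subunit Rpn12, had 11.43, 11.42 and 11.35 in labelled transgenic muscle, against 11.68, 11.71 and 11.67 in wild-type muscle. It fell by 0.28 (SE 0.10, adjusted p = 0.0377), and was called in 0 of the 6 fits that left out 1 array.

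Psmd6 and Psmd2 were dim. Psmd6, the lid subunit Rpn7, had 5.64, 5.78 and 5.92 in labelled transgenic muscle, against 6.96, 6.30 and 6.10 in wild-type muscle, and fell by 0.68 (SE 0.21, adjusted p = 0.0227). Its unnormalized intensities of 115.0, 119.6 and 114.2 on the labelled transgenic arrays and 164.8, 119.2 and 111.5 on the wild-type arrays overlapped, and the call was lost without labelled transgenic array 1 (adjusted p = 0.0736) or 2 (0.0567). Psmd2, the base scaffold Rpn1, had 5.46, 5.89 and 5.43 in labelled transgenic muscle, against 6.24, 5.82 and 6.51 in wild-type muscle. It fell by 0.60 (SE 0.20, adjusted p = 0.0293) with overlapping groups, its other probe gave 0.05, and 7 of the 17 alternatives kept the call. It was lost without labelled transgenic array 1 (0.0903) or 3 (0.086), and without wild-type array 1 (0.0746) or 3 (0.101).

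Of the ATPases that unfold the substrate, Psmc1 (Rpt2) had 9.87, 9.96 and 9.89 in labelled transgenic muscle, against 10.35, 10.14 and 10.25 in wild-type muscle. It fell by 0.34 (SE 0.11, adjusted p = 0.024), a call lost without labelled transgenic array 1 (adjusted p = 0.0598) and without wild-type array 1 (0.0807) or 3 (0.0645). Psmc2 (Rpt1) changed by -0.27 (adjusted p = 0.0609) without overlap of the groups, and its dimmer probe by -0.51 (adjusted p over probes = 0.00494). Before normalization that dimmer probe had 176.7, 186.2 and 161.7 on the labelled transgenic arrays. On the wild-type arrays it had 185.3, 192.6 and 177, and these groups overlapped. Psmc3 changed by -0.19, Psmc4 by -0.16 and Psmc5 by -0.08, none past the threshold. The other lid subunits were Psmd12 (-0.13), Psmd13 (-0.07) and Psmd14, the deubiquitinase Rpn11 (-0.08), and their groups overlapped on these probes. A second Psmd14 probe gave -0.37 without overlap (adjusted p over probes = 0.0922). A second Psmd12 probe gave -0.45 with overlap (0.121).

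**Figure D3:**
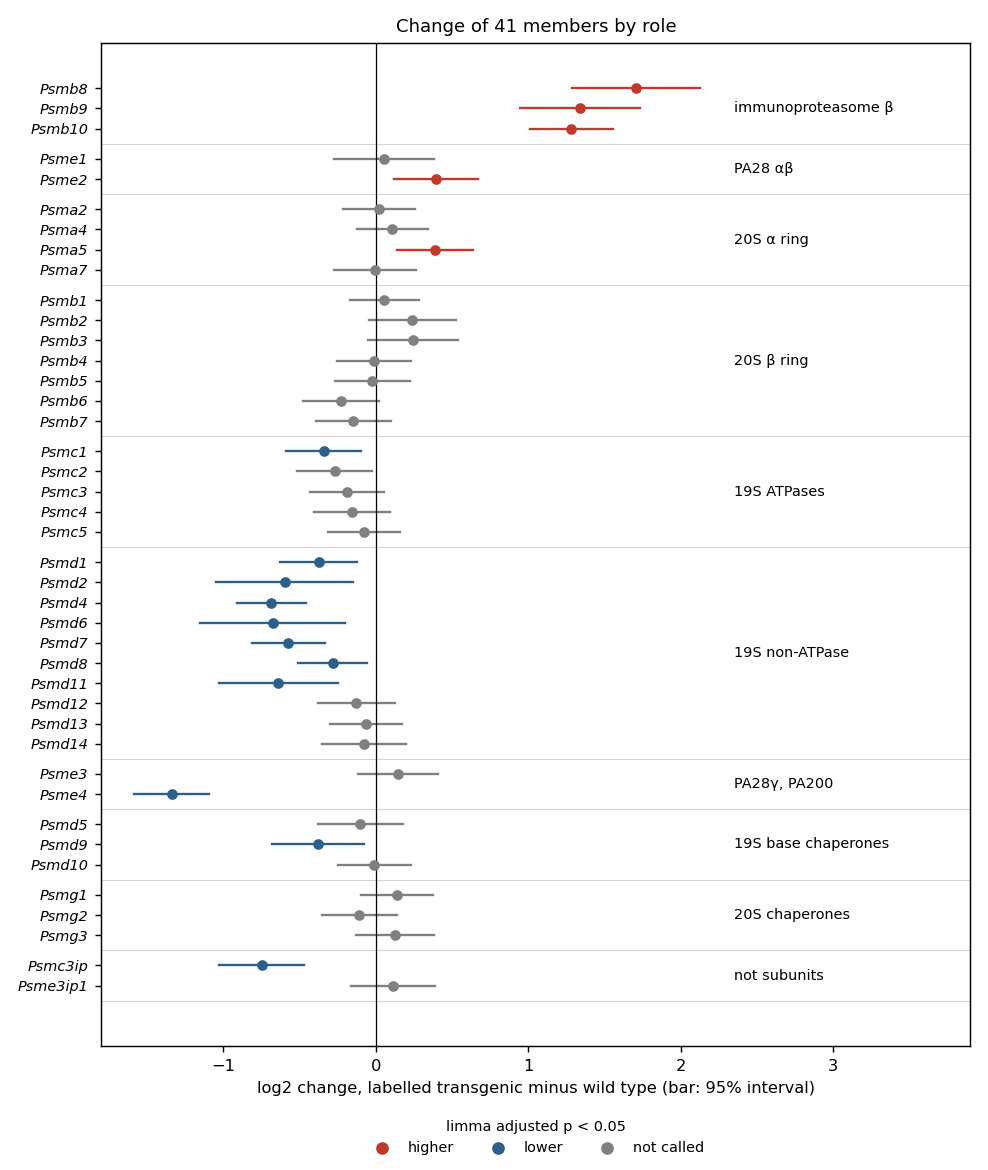
Log2 change of the 41 members (x axis, labelled transgenic minus wild type, with 95% intervals) grouped by role down the page, coloured by the limma call. The 3 inducible β genes lie between 1.28 and 1.71, the 19S genes lie at or below -0.07, and Psme4 lies at -1.34.

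The sign of the core and the number of cap genes called depended on the scaling of the arrays. Scaling each array to the median of all probes moved the median change of all genes to 0.19, against -0.03 under quantile normalization. The cap median was then -0.23 and 3 cap genes were called lower, with 16.1% of all genes. The cap calls lost there were Psmc1 (-0.23), Psmd2 (-0.24), Psmd6 (-0.31), Psmd8 (-0.22) and Psmd11 (-0.41). Relative to the median of all genes, the cap stood at -0.43 under that scaling and at -0.25 under quantile normalization. Scaling to the probes detected on all arrays gave a cap median of -0.48 with 10 genes called lower, and a core median of -0.17, below 0, with 3 core genes called lower. The cap median minus the core median was -0.30 under quantile normalization and -0.32 under both other scalings. Of the immunoproteasome set, 4 genes were called higher under quantile normalization, under both median scalings and in the authors' value table.

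**Figure D4:**
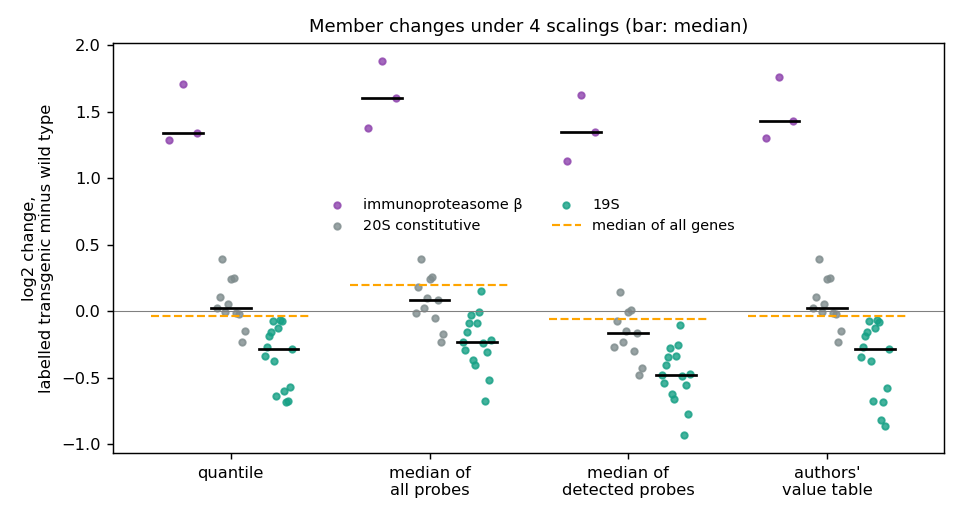
Log2 changes (y axis, labelled transgenic minus wild type) of the inducible β, constitutive 20S and 19S genes under 4 scalings (x axis), with a black bar at each median and a dashed line at the median of all genes. The 3 inducible β genes stay above 1.1 under each scaling, and the 19S median lies 0.30 to 0.32 below the 20S median. Both median scalings give the same gap by construction.

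Psme4, which encodes PA200, a single-chain activator that caps the core in the nucleus and is known for degrading acetylated histones, had the largest change among the constitutive members. It had 11.12, 10.93 and 11.13 in labelled transgenic muscle, against 12.39, 12.41 and 12.39 in wild-type muscle. It fell by 1.34 (SE 0.11, adjusted p = 1.79e-05), 2.53-fold, and wild-type arrays were within a few hundredths of each other. Of all genes tested, 3.13% had a change at or below this one. Only 1 of its 2 annotated probes was detected, so the fall rests on that probe. Psmf1, the PI31 inhibitor, is not analysed here.

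Of the 6 assembly chaperones measured, 0 rose and 1 fell, against 28.1% and 28.2% of all genes. Of those that build the base of the cap, Psmd9 fell by 0.38 (SE 0.13, adjusted p = 0.0376), Psmd5 changed by -0.10 and Psmd10 (gankyrin) by -0.01. Psmd9 was near background: its unnormalized intensities were 135.9, 121.0 and 126.8 on the labelled transgenic arrays and 133.9, 118.2 and 125.0 on the wild-type arrays, its change was -0.00 with arrays scaled to the median of all probes, and the call was lost without labelled transgenic array 1 (adjusted p = 0.0724) or 2 (0.12) and without wild-type array 1 (0.112) or 3 (0.0868). Psmg1, Psmg2 and Psmg3, which assemble the α ring, changed by 0.14, -0.11 and 0.13, none past the threshold. Of the name matches that are not subunits, Psmc3ip, a factor of meiotic recombination, fell by 0.75 (SE 0.12, adjusted p = 0.000937), and Psme3ip1 changed by 0.12. Over the whole constitutive set of 36, 1 gene rose, against 28.1% of all genes, and 11 fell, a share near the 28.2% of all genes. Over the 34 without these name matches 10 fell. The 11 became 6 without labelled transgenic array 1 or wild-type array 1, and 7 without labelled transgenic array 2 or wild-type array 3.

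Genes that load peptides on MHC class I rose with the inducible subunits: 8 of 9 measured rose and 0 fell, against 28.1% and 28.2% of all genes, with a median change of 1.08. B2m, the light chain of class I, had 13.46, 13.79 and 13.42 in labelled transgenic muscle, against 11.79, 11.89 and 11.79 in wild-type muscle, and rose by 1.73 (SE 0.13, adjusted p = 1.18e-05). The heavy chain H2-D1 rose by 1.83 and H2-K1 by 1.64. Tap1, which carries proteasome products into the endoplasmic reticulum, rose by 1.54, and was detected on 2 of the 3 wild-type arrays. Tapbpl was the one gene of the list that was not called.

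Of the interferon-γ signalling list, 6 of 8 genes that passed the filter rose and 2 fell, against 28.1% and 28.2% of all genes. The share that fell was near that of all genes. Nlrc5 and Ciita, among the 6, passed it only through the labelled transgenic arrays. Of the 6 genes detected in both groups, 4 rose and 2 fell, with a median change of 0.48. Nlrc5, the transactivator of class I genes, was not detected on any wild-type array and was at least 3.41-fold higher in labelled transgenic muscle. Ciita, the class II transactivator, was likewise at least 2.02-fold higher. Irf1, the transcription factor that drives the inducible subunits, rose by 0.80 (SE 0.22, adjusted p = 0.0122). Jak2, a kinase of the interferon-γ receptor, fell by 1.46, and the receptor chain Ifngr2 fell by 0.61. The kinase Jak1 rose by 0.54 (SE 0.10), and the other receptor chain, Ifngr1, rose by 0.42 (SE 0.12). Ifng itself did not pass the detection filter.

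Of 14 proteasome partners measured, 3 rose and 7 fell, against 28.1% and 28.2% of all genes, with a median change of -0.32. Rad23b, a shuttle for ubiquitinated proteins, fell by 0.81 (SE 0.11), Uchl5, a deubiquitinase of the cap, by 0.81 (SE 0.12), and Ecpas, which holds core and cap together, by 0.72 (SE 0.16). Zfand2a, an arsenite-induced proteasome adaptor, rose by 0.61 (SE 0.11). Of the transcription factors that drive proteasome genes, Nfe2l1 fell by 0.53 (SE 0.10, adjusted p = 0.00267) and the dimmer Nfe2l2 rose by 0.51 (SE 0.16, adjusted p = 0.021). Pomp, the chaperone that matures the core, rose by 0.26 (SE 0.10, adjusted p = 0.0498).

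Of 7 muscle ubiquitin ligases and FoxO genes measured, 0 rose and 5 fell, against 28.1% and 28.2% of all genes, with a median change of -0.69. Trim63 (MuRF1), which marks thick-filament proteins for the proteasome, had 8.13, 7.54 and 8.01 in labelled transgenic muscle, against 10.09, 9.39 and 9.47 in wild-type muscle, and fell by 1.76 (SE 0.22). Fbxo32 (atrogin-1) had 9.57, 9.15 and 9.53 in labelled transgenic muscle, against 10.95, 10.79 and 10.77 in wild-type muscle, and fell by 1.42 (SE 0.14). Trim54 fell by 1.47 and Trim32 by 0.69. Of these 7 genes, Fbxo30 and Fbxo21 were not called.

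**Figure D5:**
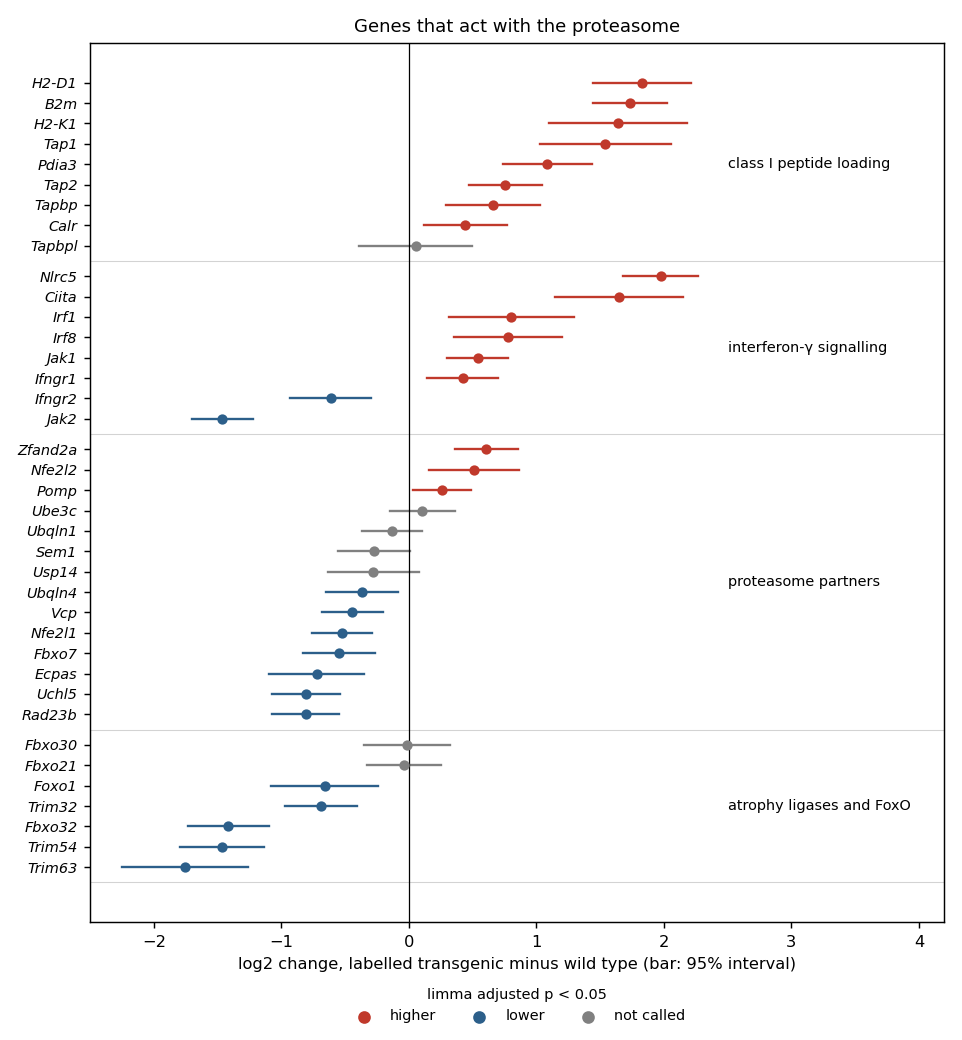
Log2 change (x axis, labelled transgenic minus wild type, with 95% intervals) of genes that act with the proteasome, in 4 lists down the page, coloured by the limma call. Class I loading genes lie between 0.05 and 1.83, and Trim63, Trim54 and Fbxo32 lie between -1.76 and -1.42. The plotted changes of Nlrc5 and Ciita are fitted values against wild-type arrays on which neither was detected.

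Macrophage markers and most fibroblast markers rose with the inducible subunits, while endothelial markers did not. As among the pathway lists, the counts stand against 28.1% of all genes that rose and 28.2% that fell. Of 12 macrophage markers that passed the filter, 1 (Fcgr1) was detected on no wild-type array. The 11 detected in both groups rose, with a median change of 2.38. The summed signal of the 12, Fcgr1 included, was 12133 to 20492 in labelled transgenic muscle and 2412 to 2768 in wild-type muscle. Fcgr1 passed the filter only through the labelled transgenic arrays. Adgre1, which encodes the macrophage antigen F4/80, rose by 2.55 (SE 0.14) and Csf1r by 1.41 (SE 0.18), while Itgam and Ptprc were not detected. Of 8 lymphocyte markers that passed the filter, the 5 called higher (Cd2, Cd3d, Cd3g, Klrd1 and Nkg7) were detected on no wild-type array and so passed it only through the labelled transgenic arrays. Of the 3 detected in both groups, 0 rose and 0 fell. The summed signal of the 8 was 1442 to 1524 in labelled transgenic muscle and 1314 to 1523 in wild-type muscle, but most of it came from Cd8b1, which was not called. Without Cd8b1, the sum was 342 to 574 in labelled transgenic muscle and 183 to 197 in wild-type muscle. That sum holds the 5 genes that passed the filter only through the labelled transgenic arrays. The filter thus favoured this direction, and the sum cannot show whether lymphocyte markers rose. Cd4, Cd8a and Ms4a1 were not detected. Of 9 fibroblast markers 6 rose, with a median of 1.52 and a summed signal of 17287 to 19186 in labelled transgenic muscle and 11866 to 12576 in wild-type muscle. Of 8 endothelial markers, 0 rose and 2 fell. Of the 11 muscle markers, 1 rose and 4 fell, and their summed signal was 167082 to 172990 in labelled transgenic muscle and 193166 to 197915 in wild-type muscle. Most of that difference came from Myh4 and Pygm, and without them the sum was 165444 to 170733 in labelled transgenic muscle and 172801 to 177841 in wild-type muscle. The part of these cells in the change of any proteasome gene was not tested.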

How the data were processed

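Tibialis anterior RNA was measured on 6 Illumina Mouse WG-6 v2 arrays, and groups were taken from the genotype labels. Nothing in the labels says that arrays are separate animals, so p-values measure the spread between arrays, which may be technical. Per the submitters' processing notes, GenomeStudio was used. The unnormalized table holds, per the file headers, the intensity of each probe on each array beside its detection p-value as deposited, with array medians of 73.3 to 78.8. The second table the authors deposited holds background-subtracted, normalized intensity values, as its common range on every array shows, and served as an alternative.

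With limma 3.58.1 in R 4.3.3, intensities were corrected by neqc (offset 16, control parameters inferred from detection p-values), quantile normalized and put on the log2 scale. The filter kept 17166 of 45281 probes, those below a detection p of 0.05 on 3 or more arrays. Names came from the platform annotation (1 symbol for 34885 probes, several for 18, none for 10378). The brightest kept probe stood for its gene. Of the 86 annotated member probes, 66 were kept. Of the 19 members with several kept probes, 15 had probes of one sign and 0 had probes called in opposite directions. Genotypes were compared with lmFit and eBayes, two-sided, adjusted over 9978 genes at 0.05, without a replicate block. The paired log ratios used an exact permutation test over arrays. An "at least" fold divides the mean of the brighter group by a bound for the other, in which each array counts with the larger of 2 signals, that of the probe and the lowest of any detected probe. The offset shrinks differences of dim probes.

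Members and gene lists were chosen with earlier results of these data known. Named genes were all members, Ppargc1b, up to 4 called genes of each pathway list by size of change, and up to 3 markers of each cell type by order in its list. Ifngr1, Ifngr2, Jak1, Nfe2l1, Nfe2l2, Pomp, Tapbpl, Fbxo21, Fbxo30, Fcgr1, Cd2, Klrd1, Nkg7, Cd8b1, Myh4 and Pygm were named after their values were seen. The fit was tested on simulated data. Counts over genes detected in both groups, and sums without single markers, were added after seeing the data. No slide block was run, since no source used here says which slide held which array.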

Additional observations from a re-analysis of the deposited data

How the results depend on the processing

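The 41 members and the pathway genes picked by size of change made 57 named genes followed over 17 alternatives. Of the alternatives, 6 each left out 1 array, and 11 were others. Of the 57 genes, 45 kept one sign, and Psmb8, Psmb9, Psmb10, Psmd4, Psmd7, Psme4 and Psmc3ip passed the threshold in each. Over these 57 genes and all alternatives, with the sign kept, 48 values lost a call, 20 gained one and 868 did neither. Calls of the cell type markers, and of genes named after their values were seen, such as Pomp, Nfe2l1 and Nfe2l2, were not followed over the alternatives. The cause of the changes below was not tested. Calls in the constitutive set were 3 higher and 5 lower with arrays scaled to the median of all probes, against 1 and 11. The higher calls were 0 when scaled to the probes detected on all arrays, 2 with the mean of kept probes and 3 with a trended, robust variance. Leaving out 1 array gave 0 to 1 higher and 6 to 9 lower. Cap calls, 8 lower, became 3 when scaled to all probes, 5 with the replicate block, and 4 to 6 without 1 array. Constitutive 20S calls, 1 higher and 0 lower, became 0 and 3 when scaled to detected probes, 2 and 1 with the mean of kept probes, 3 and 1 with a trended, robust variance, and 0 to 1 higher without 1 array. Immunoproteasome calls were 3 to 4 without 1 array and 3 with the replicate block, which kept the calls of the inducible β genes and lost Psme2 (adjusted p = 0.0503), Psmc1 (0.0544), Psmd2 (0.0572) and Psmd8 (0.077). Arrays with the same number shared only that number: their deviations from the group means correlated at -0.051, 0.031 and -0.0022. Psmb8 minus Psmb5 was 1.43 with the mean of kept probes. Psmb9 minus Psmb6 was 1.34 without background correction and 1.83 under both median scalings, which give the same difference by construction.

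Changes that took the other sign were not called. Scaled to the median of all probes, they were Psma2 -0.018, Psma7 0.022, Psmb5 0.085, Psmd10 0.17, Psmd14 0.15, Psmd5 0.29 and Psmg2 0.047. Scaled to the probes detected on all arrays, they were Psma2 -0.27, Psma4 -0.073, Psmb1 -0.15, Psmb2 -0.0067, Psmd5 0.041 and Psme1 -0.11. The mean of kept probes gave Psma7 0.030 and Psme1 -0.015, and array weights gave Psma7 0.017. Leaving out 1 array gave -0.0098 to 0.061 for Psma2, -0.070 to 0.062 for Psma7, -0.074 to 0.035 for Psmb4, -0.078 to 0.016 for Psmb5, -0.045 to 0.046 for Psmd10, -0.12 to 0.0091 for Psmd14 and -0.074 to 0.16 for Psme1. Few arrays, and signals near background for Psmd2, Psmd5, Psmd6 and Psmd9, limit what can be called.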
